A study of Mus musculus with 9 samples.

Results

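The 7 genes described here encode chemokine ligands that T cells can make: Ccl1, Ccl3, Ccl4, Ccl5, Ccl20, Ccl22 and Xcl1. They were chosen by name, with earlier results of these data known, as genes that a probe set of the array names alone. Each had 1 probe set of the 34760 on the array, which together named 19937 genes. The probe sets were 10389064 for Ccl1, 10389231 for Ccl3, 10379721 for Ccl4, 10389207 for Ccl5, 10347888 for Ccl20, 10574213 for Ccl22 and 10359697 for Xcl1. They were read in CD4+ T cells of mice in an ovalbumin model of allergic airway inflammation, with 3 arrays in each of 3 groups.

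Naive cells (CD4+ CD62L+ CD44-) came from the spleens of sham-treated mice at day 29. Acute Th2 cells (CD4+ CD69+ ST2+) came from lungs at day 29, after aerosol challenge with 1% ovalbumin on 3 consecutive days. Chronic Th2 cells, sorted with the same markers, came from lungs at day 104, after 12 weeks of challenge. Sensitisation before challenge was by 3 intraperitoneal injections of 10 µg ovalbumin with 1.5 mg aluminium hydroxide; which of these steps the sham-treated mice received, and the strain and age of the mice, are not stated in the labels. All 3 groups shared one step that bears on every level below: RNA was taken after sorted cells had spent 8 hours with antibodies to CD3 and CD28, which stand in for antigen and costimulation. Naive and Th2 cells differed in organ and in lung digestion as well as in history, and acute and chronic cells differed in day as well as in number of challenges, so these cannot be told apart. The labels call the replicates biological and do not say which animals each array came from or whether animals were pooled, so the p-values measure the spread between these arrays.

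Chemokines are small secreted proteins that direct the movement of cells bearing the matching seven-transmembrane receptor. Ccl1 is the ligand of Ccr8 and Ccl22 is a ligand of Ccr4, the receptors typical of Th2 cells. Ccl3, Ccl4 and Ccl5 are inflammatory chemokines, of which Ccl3 and Ccl5 act on Ccr1, and Ccl5 also on Ccr3. Xcl1, or lymphotactin, acts on Xcr1, found on cross-presenting dendritic cells, and Ccl20 acts on Ccr6. Several of these genes are transcribed quickly after the T cell receptor is triggered, through factors such as NFAT and NF-kB. In the RefSeq annotation Ccl1, Ccl3, Ccl4 and Ccl5 lie on chromosome 11, where Ccl3 and Ccl4 are next to each other with overlapping annotated spans, Ccl20 and Xcl1 on chromosome 1, and Ccl22 on chromosome 8 beside Cx3cl1.

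The 250 bases before the annotated start are shown for the members with the clearest pattern in the data among those the sequence table lists: Ccl1, which rose in lung Th2 cells, and Ccl3 and Xcl1, whose naive levels turned on 1 array. The table (RefSeq, build GRCm38.p6) lists 5 of the 7 members, without Ccl4 and Ccl5. The windows are chr11:82179813-82180062 for Ccl1, chr11:83649379-83649628 for Ccl3 and chr1:164935523-164935772 for Xcl1, all on the minus strand and written 5′ to 3′ toward the start. Capitals mark each match, on either strand, to GGAAA, the core letters bound by NFAT.
Ccl1: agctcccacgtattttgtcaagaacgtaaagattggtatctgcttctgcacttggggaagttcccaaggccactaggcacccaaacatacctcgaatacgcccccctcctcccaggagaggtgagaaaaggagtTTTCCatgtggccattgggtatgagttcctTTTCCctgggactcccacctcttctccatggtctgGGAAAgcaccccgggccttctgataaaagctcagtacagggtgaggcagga
Ccl3: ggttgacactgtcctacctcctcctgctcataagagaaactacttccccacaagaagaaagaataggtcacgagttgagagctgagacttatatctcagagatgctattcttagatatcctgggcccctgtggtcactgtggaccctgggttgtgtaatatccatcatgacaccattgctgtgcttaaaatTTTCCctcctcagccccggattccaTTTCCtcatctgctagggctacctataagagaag
Xcl1: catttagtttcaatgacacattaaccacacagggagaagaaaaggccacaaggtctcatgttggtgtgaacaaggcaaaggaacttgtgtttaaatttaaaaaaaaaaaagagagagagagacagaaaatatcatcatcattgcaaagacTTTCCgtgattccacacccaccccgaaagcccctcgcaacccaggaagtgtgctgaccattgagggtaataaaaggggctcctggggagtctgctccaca

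The Ccl1 window held 3 matches to GGAAA, that of Ccl3 held 2, and that of Xcl1 held 1. The Ccl20 window also held 3, and the Ccl22 window held none. Of 32851 promoter windows of this length, 55.6% held at least 1 match, 21.4% held 2 or more and 6.39% held 3 or more. The NF-kB pattern, GGG and CC with 5 bases between them, was found 2 times in the Ccl1 window and 3 times in that of Ccl20, in each case as overlapping matches, and 2 times in that of Ccl22. It was absent from the Ccl3 and Xcl1 windows and present in 45.8% of all windows. The AP-1 pattern TGANTCA, present in 6.75% of windows, and TATAAA, present in 12.4%, were searched on both strands too and found in none of the 5. A match is a run of letters and not a measured binding site, and no factor binding was measured here.

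Values below are log2 intensities, so a difference of 1 is a doubling of intensity, and levels are compared within a gene and not between genes. The 95th percentile of the mean levels of 1015 olfactory receptor genes, expected to be silent in T cells, was 6.53 and is called the background bound. Naive replicate 1 and chronic replicate 3 stood apart from their groups. Naive replicate 1 correlated at r = 0.9385 and 0.9412 with naive replicates 2 and 3 across genes, against 0.9912 between those, and chronic replicate 3 was closest to acute replicate 3, at 0.991, against 0.9805 and 0.9854 with its own group. The differences of the members from naive cells are therefore given with and without naive replicate 1. The median olfactory receptor level was 5.67, 5.51 and 5.15 on the chronic arrays, against 4.94 to 5.21 on the other arrays, which bears on members close to the bound. All 10 measured T cell markers were above the bound on every array, and all 7 measured Th2 markers were called higher in both lung groups. The gate's own marker gene Il1rl1 (ST2) was not analysed here.

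With all 9 arrays, limma called 1 of the 7 members in acute Th2 against naive cells, where it called 5.87% of all genes (3.67% higher and 2.20% lower). It called 1 of 7 in chronic Th2 against naive cells, against 7.88% of all genes (3.68% higher and 4.20% lower), and 0 of 7 in chronic against acute Th2 cells, against 0.0301% of all genes. A gene was called at a Benjamini-Hochberg adjusted p under 0.05 over all 19937 genes, and at an unadjusted p under 0.05 the counts of members were 3, 3 and 1. The called member was Ccl1 in both comparisons. The members' median difference was 0.25 in acute and 0.34 in chronic Th2 against naive cells, and 0.053 between the lung groups, beside medians of -0.03, 0.043 and 0.043 over all genes. The 2 comparisons with naive cells share the naive arrays, so they are not independent of each other.

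**Figure D1:**
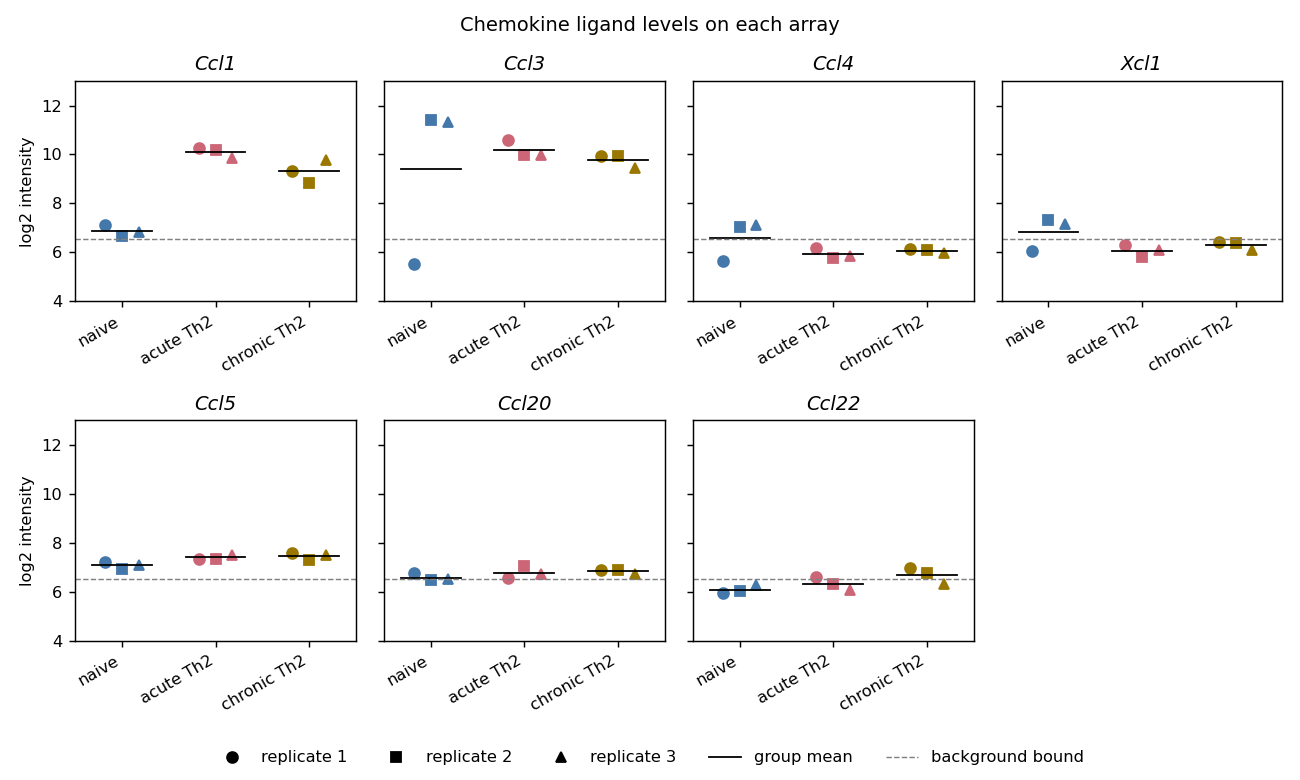
Log2 intensity (vertical axis) of the 7 chemokine ligand genes on each of the 9 arrays, by group, with marks for replicates 1 to 3, a line for the group mean and a dashed line for the background bound of 6.53. Ccl1 lies at 6.69 to 7.14 in naive cells and at 8.83 to 10.28 in lung Th2 cells, and for Ccl3, Ccl4 and Xcl1 naive replicate 1 lies below the other naive arrays.

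Ccl1, the Ccr8 ligand, was the member that rose in both lung groups. Its level was 7.14, 6.69 and 6.82 in naive cells, 10.28, 10.17 and 9.85 in acute Th2 cells, and 9.34, 8.83 and 9.79 in chronic Th2 cells. Every lung array was above every naive array, and every chronic array was below every acute array. Group means were 6.88 ± 0.23 (SD, n = 3), 10.10 ± 0.22 and 9.32 ± 0.48. Ccl1 rose in acute Th2 cells by 3.22 (SE 0.24, 95% interval 2.69 to 3.76), or 9.35-fold, with an adjusted p of 7.6e-05 in limma. In chronic Th2 cells it rose by 2.44 (SE 0.24, 95% interval 1.90 to 2.98), or 5.43-fold, with an adjusted p of 0.000419 in limma. Leaving out each array in turn kept Ccl1 called in all 9 fits for both comparisons, with differences of 3.13 to 3.35 in acute and 2.21 to 2.68 in chronic cells, and of 3.35 and 2.57 without naive replicate 1.

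Between the lung groups Ccl1 was lower in chronic than in acute cells by 0.78 on the log2 scale (1.72-fold; 95% interval of the difference -1.32 to -0.25), which did not pass the adjustment (adjusted p = 0.322 in limma). Chronic replicate 3, the array closest to the acute group, had the highest chronic level, 9.79. Without it the difference was -1.02 with an adjusted p of 0.0889, and without it and naive replicate 1 the same difference had an adjusted p of 0.0294 in limma, where 1 of 7 members and 5.45% of all genes were called. Whether this array's place apart bears on the difference was not tested beyond these fits.

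Ccl3, Ccl4 and Xcl1 were the members for which the naive arrays disagreed. The Ccl3 level was 5.54, 11.40 and 11.31 in naive cells, 10.60, 9.99 and 9.98 in acute cells, and 9.94, 9.92 and 9.43 in chronic cells. Naive replicate 1 lay under the background bound, while naive replicates 2 and 3 were above all 6 lung arrays, and every chronic array was below every acute array. The naive mean of 9.42 ± 3.36 (SD, n = 3) therefore describes none of the 3 arrays, and without replicate 1 it was 11.36. With all arrays the difference was 0.77 (95% interval -2.28 to 3.82; adjusted p = 0.881) in acute and 0.34 (adjusted p = 0.882) in chronic against naive cells in limma. Without naive replicate 1, Ccl3 was lower by 1.17 in acute (difference -1.17, SE 0.21, adjusted p = 0.00776) and by 1.59 in chronic cells (difference -1.59, adjusted p = 0.00131 in limma). The direction of Ccl3 against naive cells thus rests on 1 array. The difference between chronic and acute cells was -0.43, with adjusted p = 0.878 with all arrays and 0.233 without naive replicate 1.

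Ccl4, the neighbour of Ccl3 and an inflammatory chemokine, had levels of 5.65, 7.04 and 7.14 in naive cells, 6.20, 5.79 and 5.87 in acute cells, and 6.15, 6.10 and 5.98 in chronic cells. Naive replicates 2 and 3 were the only arrays above the bound, and naive replicate 1 was the lowest of all 9. The difference from naive cells was -0.66 (SE 0.35, adjusted p = 0.428) in acute and -0.53 (SE 0.35, adjusted p = 0.354) in chronic cells. With that array left out it was -1.14 (SE 0.13, adjusted p = 0.000583) and -1.01 (SE 0.13, adjusted p = 0.00101), both called lower by limma. Because all 6 lung arrays were under the bound, these sizes are of a gene near the background of the array in lung cells.

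Xcl1 followed the same order, at 6.05, 7.33 and 7.16 in naive cells, 6.31, 5.80 and 6.10 in acute cells, and 6.43, 6.37 and 6.12 in chronic cells. Again naive replicates 2 and 3 alone were above the bound. The difference from naive cells was -0.78 (SE 0.31, adjusted p = 0.242) in acute and -0.54 (SE 0.31, adjusted p = 0.292) in chronic cells. In the fit without naive replicate 1 it was -1.18 (SE 0.16, adjusted p = 0.00144) and -0.94 (SE 0.16, adjusted p = 0.00411), both called lower by limma. Across the 9 arrays the levels of Ccl4 and Xcl1 had r = 0.969, those of Ccl3 and Ccl4 r = 0.691, and those of Ccl3 and Xcl1 r = 0.564. These 9 arrays share groups and naive replicate 1, so the correlations are descriptions.

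Without naive replicate 1, limma called 4 of 7 members in acute against naive cells, beside 12.2% of all genes, and 5 of 7 in chronic against naive cells, beside 17.2% of all genes. The 3 members called lower in each were Ccl3, Ccl4 and Xcl1, beside 6.11% and 11.4% of all genes lower. The members called higher were Ccl1 in both and Ccl5 in chronic cells, beside 6.05% and 5.84% of all genes higher. In these fits the naive group has 2 arrays and its spread is taken from all groups.

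Genes that the T cell receptor induces also set naive replicate 1 apart. Il2, the T cell growth factor, was at 5.07, 11.33 and 11.27 in naive cells, at 10.94 to 12.01 in acute cells and at 8.95 to 11.70 in chronic cells. Tnf was at 7.65, 10.71 and 11.01 in naive cells, and Egr2, a receptor-induced transcription factor, at 7.96, 10.75 and 11.16. Nr4a1, an immediate early gene, was at 10.72, 12.66 and 12.88. For each of these 4 genes naive replicate 1 was the lowest naive array, as it was for Ccl3, Ccl4 and Xcl1, and the part of this in the results was not tested. A list of 30 such early genes was chosen with earlier results of these data known. With all arrays, 4 of them were called higher and 1 lower in each lung group, beside 5.87% (acute) and 7.88% (chronic) of all genes. When naive replicate 1 was left out, 10 were called higher and 9 lower in acute cells, and 8 higher and 12 lower in chronic cells. In that fit 12.2% (acute) and 17.2% (chronic) of all genes were called.

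**Figure D2:**
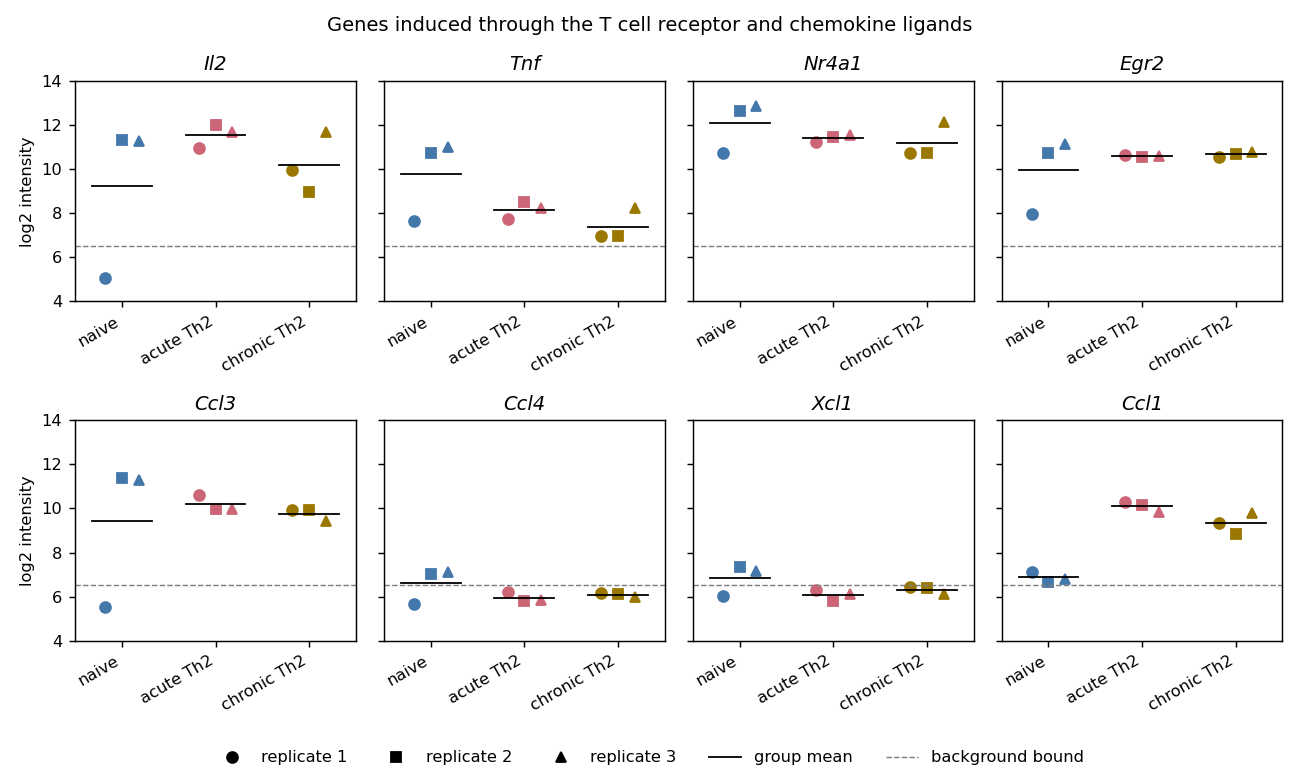
Log2 intensity (vertical axis) of Il2, Tnf, Nr4a1 and Egr2 in the upper row and of Ccl3, Ccl4, Xcl1 and Ccl1 in the lower row, by group, with marks for replicates 1 to 3, a line for the group mean and a dashed line for the background bound of 6.53. Naive replicate 1 is the lowest naive array for every gene shown except Ccl1, where it is the highest at 7.14.

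Ccl5, an inflammatory chemokine typical of activated and memory T cells, differed little between groups. Its level was 7.23, 6.92 and 7.09 in naive cells, 7.35, 7.35 and 7.51 in acute cells, and 7.57, 7.29 and 7.51 in chronic cells. Every lung array was above every naive array, by a small margin. The difference from naive cells was 0.32 (SE 0.11, adjusted p = 0.169) in acute and 0.38 (SE 0.11, adjusted p = 0.079) in chronic cells. Without naive replicate 1, the highest of the naive arrays, it was 0.40 (adjusted p = 0.0559) and 0.45 (adjusted p = 0.0268 in limma), so the chronic call depended on that array. Centring each array on its olfactory receptor median turned the chronic difference of Ccl5 to -0.03. It also moved the median over all genes in that comparison from 0.043 to -0.37. Whether the brighter background of the chronic arrays bears on Ccl5 was not tested.

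Ccl22, the Ccr4 ligand, had levels of 5.93, 6.02 and 6.27 in naive cells, 6.59, 6.31 and 6.08 in acute cells, and 6.99, 6.78 and 6.33 in chronic cells. It was above the background bound on 3 of 9 arrays, and the chronic arrays were above the naive ones but overlapped the acute ones. The difference from naive cells was 0.25 (SE 0.19, adjusted p = 0.637) in acute and 0.63 (SE 0.19, adjusted p = 0.0865) in chronic cells, and it was 0.38 (adjusted p = 0.37) between the lung groups. In the fit without naive replicate 1 the differences from naive cells were 0.18 (adjusted p = 0.756) and 0.56 (adjusted p = 0.108). Without chronic replicate 3 it was called higher in chronic than in naive cells (difference 0.81, SE 0.17, adjusted p = 0.0287 in limma), and also without that array and naive replicate 1 (0.74, adjusted p = 0.0193). The genes whose pattern was most like that of Ccl22 included 2 olfactory receptor genes (below). With olfactory receptor centring the Ccl22 difference between lung groups was -0.001, and the median over all genes moved from 0.043 to -0.33. The part of the array background in the Ccl22 result was not tested. With array weights, 2 of 7 members were called between the lung groups, beside 33.7% of all genes: Ccl22 higher in chronic cells (0.62, adjusted p = 0.00897) and Ccl1 lower (-0.83, adjusted p = 0.00876 in limma).

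Ccl20, the Ccr6 ligand, was at 6.75, 6.47 and 6.50 in naive cells, 6.56, 7.04 and 6.74 in acute cells, and 6.87, 6.89 and 6.74 in chronic cells. It was above the bound on 7 of 9 arrays and the groups overlapped, through naive replicate 1: every lung array was above the other 2 naive arrays. It differed by 0.21 (SE 0.13, adjusted p = 0.545) in acute and 0.26 (adjusted p = 0.254) in chronic against naive cells, with no call. In the fit without naive replicate 1 the differences were 0.29 (adjusted p = 0.252) and 0.35 (adjusted p = 0.123) in limma. Across the 7 members, the order of group means was naive below chronic below acute for Ccl1 and, with all arrays, Ccl3, naive below acute below chronic for Ccl5, Ccl20 and Ccl22, and acute below chronic below naive for Ccl4 and Xcl1. The neighbours in this order that passed the test were naive and chronic cells for Ccl1.

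Counting arrays without a fit, 2 of 7 members (Ccl1 and Ccl5) had all acute arrays above all naive arrays and none had all below, beside 19.7% of all genes without overlap in either direction. For chronic against naive cells 3 of 7 (Ccl1, Ccl5 and Ccl22) lay above and none below, beside 27.9%. For chronic against acute cells 2 of 7 (Ccl1 and Ccl3) lay below and none above, beside 22.7%. The counts against naive cells turned on naive replicate 1. Without it, 6 of 7 members had no overlap in acute against naive cells, beside 35.8% of all genes, with Ccl1, Ccl5 and Ccl20 above and Ccl3, Ccl4 and Xcl1 below. In chronic against naive cells all 7 then had no overlap, beside 44.6% of all genes, with Ccl22 above as well.

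**Figure D3:**
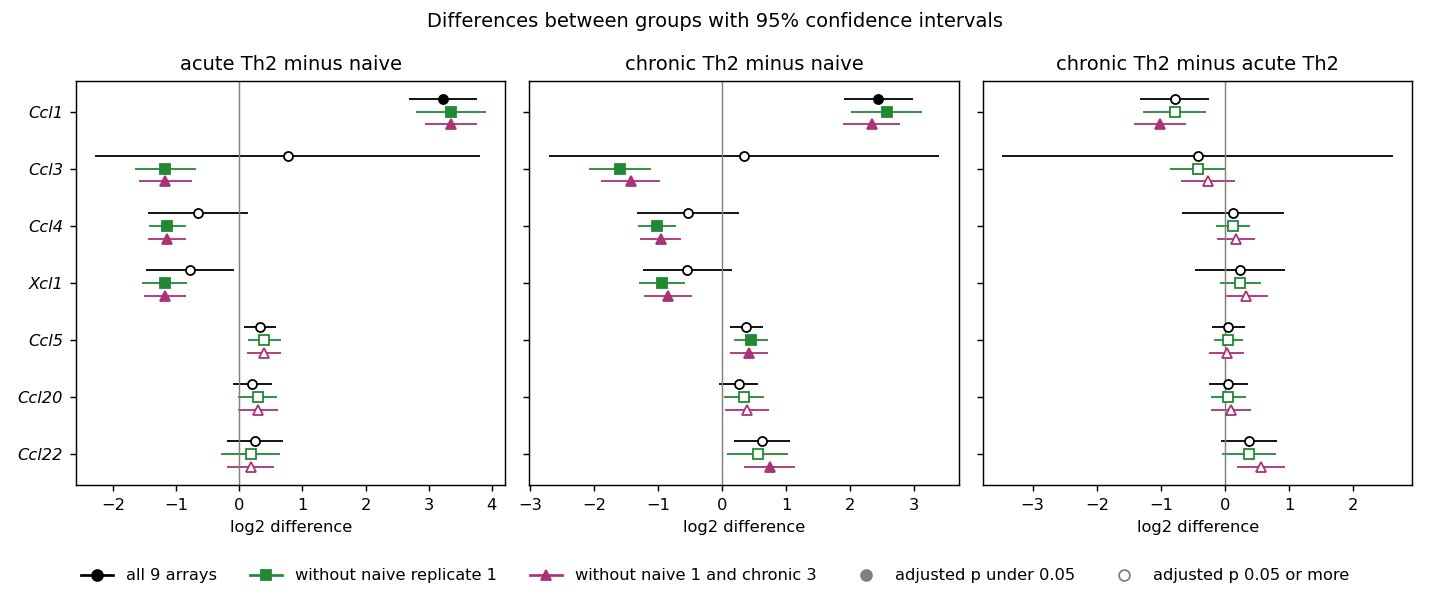
Difference in log2 intensity (horizontal axis) with its 95% interval for each of the 7 members in the 3 comparisons, with all arrays, without naive replicate 1, and without naive replicate 1 and chronic replicate 3; filled marks have an adjusted p under 0.05. Ccl1 lies above 0 against naive cells in all 3 fits, at 3.22 and 2.44 with all arrays, while the intervals of Ccl3, Ccl4 and Xcl1 against naive cells lie below 0 in the fit without naive replicate 1.

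Several receptors of these ligands were higher in lung Th2 cells than in naive cells. Of the 9 measured receptors listed for them, 4 were called higher and 0 lower in each lung group against naive cells. The shares of all genes called higher were 3.67% in acute and 3.68% in chronic cells. The receptor list too was chosen with earlier results of these data known. Ccr8, the Ccl1 receptor, was at 5.50, 7.46 and 8.41 in naive cells, 11.06, 11.11 and 11.10 in acute cells and 11.39, 10.97 and 11.53 in chronic cells. It rose by 3.97 (SE 0.60, adjusted p = 0.00533) in acute and by 4.18 (SE 0.60, adjusted p = 0.00396) in chronic cells in limma. Ccr4, the Ccl22 receptor, was at 6.37 to 7.76 in naive cells and at 11.55 to 11.82 in lung cells, and rose by 4.59 and 4.56 (SE 0.29; adjusted p 3.3e-05 and 3.5e-05 in limma). So the receptors Ccr8 and Ccr4 were called higher in both lung groups, while of their ligands Ccl1 was and Ccl22 was not.

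Ccr1, a receptor of Ccl3 and Ccl5, was at 4.27 to 4.52 in naive cells, 6.60 to 6.71 in acute cells, and 7.29, 8.20 and 7.55 in chronic cells. It rose by 2.29 (SE 0.20, adjusted p = 0.000263) in acute and 3.31 (SE 0.20, adjusted p = 2.8e-05) in chronic cells in limma. Every chronic array was above every acute array, by 1.02 on average, with an adjusted p of 0.301 with all arrays and 0.0398 without naive replicate 1 and chronic replicate 3. Ccr3, a Ccl5 receptor, was at 5.58 to 5.72 in naive cells, 6.53 to 6.64 in acute cells and 6.69 to 6.82 in chronic cells, and rose by 0.91 and 1.08 (adjusted p 0.000237 and 9.2e-05 in limma). The naive levels of Ccr1 and Ccr3 were under the background bound on all arrays.

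The other receptors were not called with all arrays. Ccr6, the Ccl20 receptor, stayed between 5.48 and 6.40 and Xcr1, the Xcl1 receptor, between 5.65 and 6.45, both under the bound on all 9 arrays. The difference of Ccr6 from naive cells was 0.51 in acute cells (adjusted p = 0.114), and it was called there without acute replicate 1 (adjusted p = 0.0225) and with array weights (0.63, adjusted p = 0.00246 in limma). Xcr1 differed by 0.39 in chronic cells (adjusted p = 0.116 in limma). It was called there without chronic replicate 3 (0.51, adjusted p = 0.0436) and without that array and naive replicate 1 (0.41, adjusted p = 0.0255 in limma). Olfactory receptor centring gave -0.015 for Xcr1, beside a median of -0.37 over all genes. The atypical receptors Ackr2, at 6.30 to 6.90, Ackr4, at 5.64 to 6.16, and Ccrl2, at 5.97 to 7.0, bind chemokines without the usual signalling. All 4 called receptors were called in each of the 9 fits that left out 1 array. In chronic against acute cells 0 of 9 were called by limma, and 1 of 9 at an unadjusted p under 0.05.

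**Figure D4:**
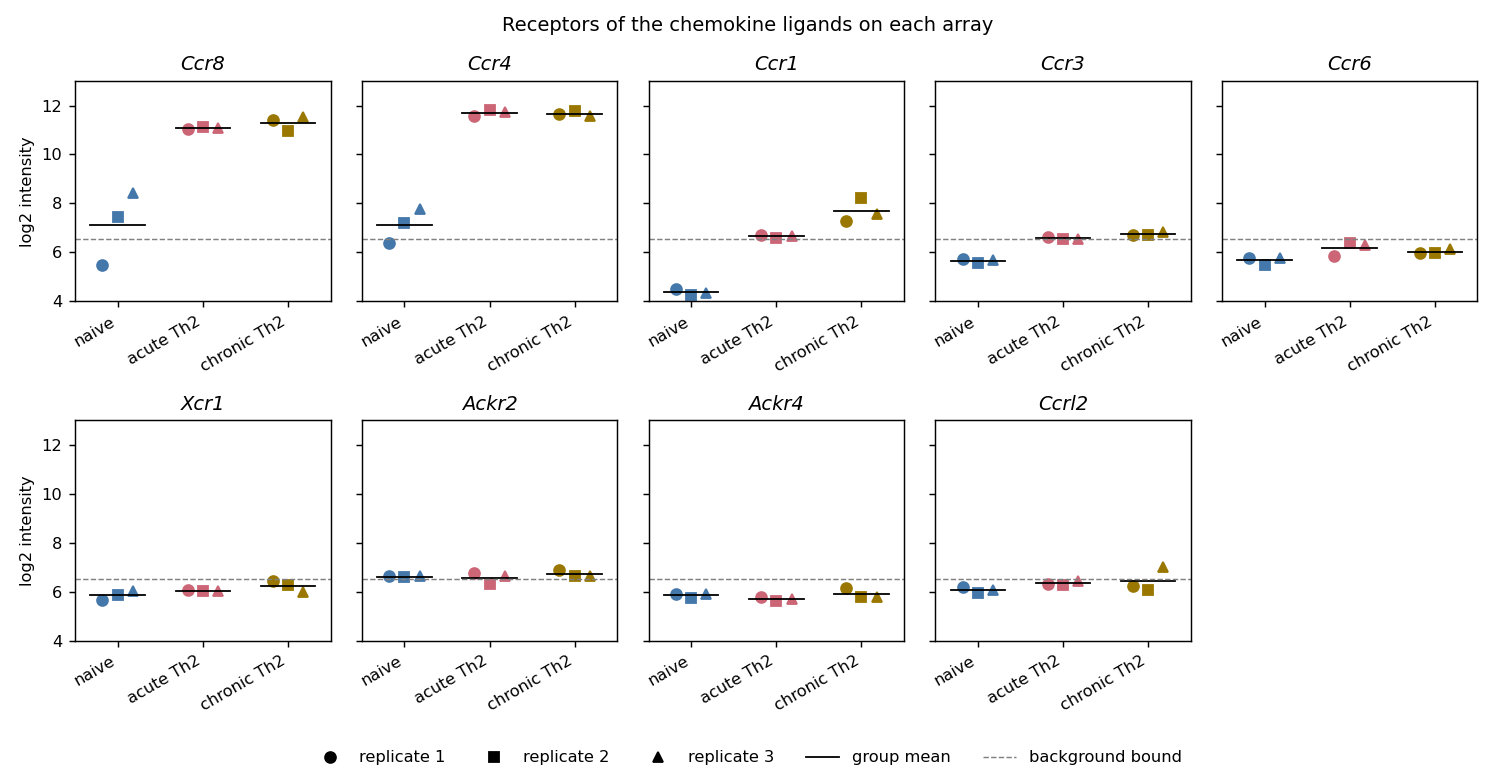
Log2 intensity (vertical axis) of the 9 measured receptors of the member ligands on each array, by group, with marks for replicates 1 to 3, a line for the group mean and a dashed line for the background bound of 6.53. Ccr4 and Ccr8 lie at 10.97 or higher on every lung array, while Ccr6 and Xcr1 lie under the bound on all 9 arrays.

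Of 29 measured other chemokine ligands, 0 were called in acute against naive cells by limma (3 at an unadjusted p under 0.05), 1 was called higher in chronic against naive cells (9 at an unadjusted p under 0.05), and 0 in chronic against acute cells (5 at an unadjusted p under 0.05). The called ligand was Cxcl2, a chemokine that draws neutrophils, at 5.17, 5.20 and 5.70 in naive cells, 6.19, 7.20 and 7.08 in acute cells, and 6.80, 7.08 and 8.74 in chronic cells. It rose by 2.18 (SE 0.49, adjusted p = 0.0301 in limma) in chronic cells and was called in 5 of the 9 fits that left out 1 array. The call was lost without naive replicate 2, acute replicate 2, acute replicate 3 or chronic replicate 2 (adjusted p 0.055 to 0.0846). It was lost as well when each array was centred on its olfactory receptor median (1.77, adjusted p = 0.0503 in limma). The naive levels of Cxcl2 were under the background bound. Without naive replicate 1 the counts of other ligands called were again 0, 1 and 0, with 2, 6 and 6 at an unadjusted p under 0.05 in limma.

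Among 14 other chemokine receptors, Cxcr6, the receptor of Cxcl16, rose by 5.39 in acute and 5.51 in chronic cells (adjusted p 1.7e-07 and 8.2e-08 in limma). Ccr2, the receptor of Ccl2, rose by 4.20 and 4.77, and Ccr7, the receptor that guides naive cells to lymph nodes, fell by 1.90 and 2.15 on the log2 scale. Cx3cr1 rose by 0.64 in chronic cells (adjusted p = 0.0313 in limma) and was called in 5 of 9 fits that left out 1 array; the call was lost without naive replicate 2, acute replicate 3, chronic replicate 1 or chronic replicate 2 (adjusted p 0.0612 to 0.125), and with olfactory receptor centring (0.23, adjusted p = 0.159). The naive levels of Cxcr6 and Ccr2, at 5.61 to 6.03 and 4.76 to 4.96, were under the background bound, so these differences start from the background of the array. In all, 2 rose and 1 fell in acute cells, 3 rose and 1 fell in chronic cells, and none was called between the lung groups (3 at an unadjusted p under 0.05 in limma). The shares of all genes called in these comparisons were 5.87%, 7.88% and 0.0301%.

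Of 33 measured transcription regulators of T cell effector genes, 7 were called higher and 0 lower in each lung group. All genes had 3.67% called higher in acute and 3.68% in chronic cells. Prdm1, which encodes Blimp-1, rose by 3.60 in acute and 3.97 in chronic cells, and Gata3, the factor that defines Th2 cells, by 3.07 and 2.98. Batf rose by 2.54 and 2.30, Rora by 2.26 and 1.83, and Stat5a by 1.61 and 1.45. Tbx21, which encodes the Th1 factor T-bet, rose by 1.46 (adjusted p = 0.0382) and 1.75 (adjusted p = 0.0155) in limma, and was called in 3 and 7 of the 9 fits that left out 1 array. In acute cells the call held without naive replicate 1, naive replicate 2 or chronic replicate 3 and was lost without any other array (adjusted p 0.0587 to 0.141), and in chronic cells it was lost without chronic replicate 1 or 2 (adjusted p 0.075 and 0.0688). When naive replicate 1 was left out, 12 were called higher and 5 lower in acute cells, and 11 higher and 7 lower in chronic cells. That fit called 12.2% (acute) and 17.2% (chronic) of all genes. In chronic against acute cells with all arrays, 0 of the 33 regulators were called by limma, and 1 at an unadjusted p under 0.05.

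The search for genes most like each member covered 10572 genes with at least 1 group mean above the background bound, leaving out the members themselves. The nearest genes were taken as the 3 highest Pearson correlations over the 9 arrays. For Ccl1 they were Il17f, a cytokine gene of Th17 cells (r = 0.9915), Olr1 (r = 0.9866) and Aqp9 (r = 0.9858). Il17f was at 6.36 to 6.53 in naive cells, 10.97, 11.06 and 10.47 in acute cells, and 9.56, 8.70 and 10.54 in chronic cells. Like Ccl1, it was lowest in chronic replicate 2 among the lung arrays and highest among the chronic ones in replicate 3. For Ccl3 they were Eef1e1 (r = 0.9931), Slc1a5, an amino acid transporter (r = 0.9857), and Tmem208 (r = 0.9832). Eef1e1 was at 8.00, 10.71 and 10.74 in naive cells and at 9.80 to 10.11 in lung cells.

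Tnfrsf21, which encodes death receptor 6, was the nearest gene of both Ccl4 (r = 0.9739) and Xcl1 (r = 0.9828), at 6.32, 7.18 and 7.03 in naive cells and 6.37 to 6.64 in lung cells. The others were Ppm1a and Snora74a for Ccl4, and Sec22a and Mmd for Xcl1. Sec22a (r = 0.9571) and Mmd (r = 0.9537) were less like Xcl1 than the member Ccl4 was (r = 0.969). For Ccl5 they were Fuz, Pear1 and Crmp1 (r = 0.9437 to 0.9677), and for Ccl20, the member with the weakest matches, Cuedc2, Plin3 and Glt8d1 (r = 0.8427 to 0.8704). For Ccl22 they were Slurp2 (r = 0.9792) and the olfactory receptor genes Olfr632 (r = 0.9737) and Olfr149 (r = 0.971). Of these, Olfr632 entered the search through its chronic mean of 6.67 alone. Olfr149 was at 6.20, 6.50 and 6.88 in naive cells, 7.01, 6.69 and 6.60 in acute cells, and 7.65, 7.32 and 6.93 in chronic cells. These likenesses are over 9 arrays of 3 groups and are descriptions.

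Other cells of spleen or lung also make these chemokines, and in bulk RNA fewer cells of a type and less RNA per cell cannot be told apart. For 15 measured macrophage and monocyte markers, 1 to 2 were above the bound on any array, and their summed log2 levels were 85.0 to 85.9 in naive, 84.1 to 85.4 in acute and 86.2 to 88.4 in chronic cells. For 15 dendritic cell markers, 3 to 5 were above the bound and the sums were 90.0 to 92.5, 90.8 to 93.7 and 93.0 to 95.1. The defining markers Csf1r, at 5.48 to 5.63, and Itgax, at 5.80 to 6.21, were under the bound on all 9 arrays, as were Ncr1 of NK cells, at 4.56 to 5.19, and Cd8a, at 5.97 to 6.38. The dendritic cell markers Itgax, H2-Eb1 and Ccl17 were higher on every chronic array than on every naive and every acute array. The macrophage marker Cd68 was lower on every lung array than on every naive array. Arrays did not overlap for 27.9% of all genes in chronic against naive and 22.7% in chronic against acute cells. No macrophage, dendritic cell, neutrophil, endothelial or CD8 marker was called in either comparison with naive cells by limma with all 9 arrays, with 0 to 4 of each at an unadjusted p under 0.05. Without naive replicate 1, the fit in which Ccl3, Ccl4 and Xcl1 were called lower, the dendritic cell marker Cd74 was called higher in both lung groups. In other fits Xcr1, Ly6g, Adgre1, Pecam1, H2-Eb1, H2-Aa, Pdgfra or Cd8b1 were called. With all arrays, Gzma was called higher and Klrd1 lower among 11 NK markers in acute cells, Cd79a lower among 9 B cell markers and Gata2 higher among 12 mast cell and basophil markers in chronic cells. Ccr3 was called among 6 eosinophil markers in both lung groups, and Muc1 in both with Sftpa1 in chronic cells among 14 lung epithelium markers. Of 7 measured markers of group 2 innate lymphoid cells, 5 were called higher in both lung groups, including Gata3 and Rora, which Th2 cells also express, and Cd5 and Lat of the T cell list were called lower in both. Of these calls, Gzma and, in acute cells, Cd5 and Lat were lost without chronic replicate 3, Cd79a without naive replicate 1 or without chronic replicate 3, and Lat in chronic cells without chronic replicate 3. Olfactory receptor centring ended those of Gzma, of Gata2, of Muc1 and Sftpa1 in chronic cells, and of Cd5 in acute cells. The B cell marker Ighm was called higher in chronic cells without naive replicate 1, and Cr2 and Ms4a1 without chronic replicate 3. All 3 were called higher without both arrays. Without naive replicate 1, the T cell markers Cd2, Cd28, Cd4 and Thy1 were called higher in acute cells. Cd2, Cd28 and Thy1 were also called higher in chronic cells in that fit, beside 6.05% (acute) and 5.84% (chronic) of all genes. Between the lung groups no macrophage or dendritic cell marker was called with all arrays. The fit with array weights, which called Ccl22 higher in chronic cells, also called 5 of 15 macrophage and monocyte markers higher. These were Adgre1, Lyz1, Lyz2, Mrc1 and Ms4a7. It called 4 of 15 dendritic cell markers higher too (Ccl17, H2-Eb1, Siglech and Xcr1) and none of either list lower, beside 33.7% of all genes. The part of other cells in the member results was not tested.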

How the data were processed

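RNA of 9 samples was hybridised to Affymetrix Mouse Gene ST arrays. The deposited values are log2 intensities, summarised by the authors with RMA, per the submitters' processing notes, which name limma too; no versions are named. Of 34760 probe sets, 21640 name 1 gene, 1321 several and 11799 none in the platform annotation. A gene was read from the probe set with the highest mean among those naming it alone (19937 genes); each member had 1. Groups were compared with limma 3.58.1 in R 4.3.3 on all 9 arrays, two-sided, with Benjamini-Hochberg adjustment over all genes. On simulated data for the acute against naive comparison over 19937 genes, the fit recovered 80% of 100 log2 changes of 1 and 98% of 100 of 2, with 12 false calls. The simulated noise was independent between genes and arrays, so no simulated array stood apart as naive replicate 1 did. These rates need not hold for Ccl3, Ccl4 and Xcl1. The number of arrays limits the precision. RMA sets all arrays to one distribution, so a shift in most genes would not show. The members and lists were chosen with earlier results of these data known. Named are all members and their receptors, at most 6 called genes of each other list, Il2, Tnf, Nr4a1 and Egr2, the 3 genes nearest to each member, and called or defining cell markers. Promoters are from RefSeq GRCm38.p6, matched by symbol. Alternatives are given in the closing section.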

Additional observations from a re-analysis of the deposited data

How the results depend on the processing

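Ccl1 was called higher in both lung groups against naive cells under every alternative run. Leaving out 1 array gave 653 to 2424 genes and 1 to 4 members called in acute against naive cells, 734 to 3438 genes and 1 to 5 members in chronic against naive cells, and 0 to 12 genes and 0 to 0 members between the lung groups. The highest counts were without naive replicate 1 and the lowest without acute replicate 3 (681 without acute replicate 2) and without chronic replicate 1 (833, 1007 and 1041 without chronic replicate 2, acute replicate 3 and naive replicate 2), and without chronic replicate 3 the members called in chronic against naive cells were 2. Between the lung groups 11 genes were called without chronic replicate 3, 2 without chronic replicate 1, and 0 without naive replicate 3, chronic replicate 2 or any 1 acute array. Without naive replicate 1 and chronic replicate 3 the genes called were 2624, 4665 and 1087 and the members 4, 6 and 1 in these comparisons. With array weights, which gave naive replicate 1 a weight of 0.165 and acute replicate 3 one of 8.234, they were 4019, 4675 and 6721 genes and 4, 5 and 2 members. Fitting each pair of groups alone called 762, 686 and 2 genes, and olfactory receptor centring 643, 3599 (314 higher, 3285 lower) and 44. The intensity trend called 3 genes between the lung groups. The labels number replicates 1 to 3 in each group but do not say that same-numbered arrays share a source, so the numbers were not taken as pairs. Deviations of same-numbered arrays had r from -0.085 to 0.572, over 0.1 in 6 of 9 pairs. Those of differently numbered arrays had r from -0.557 to 0.441 and were mostly below 0.1. Whether same-numbered arrays share a source was not tested. With the replicate number as a block, 1261, 1844 and 0 genes and 1, 1 and 0 members were called.

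Signs turned for these members. Ccl3 against naive cells was -1.17 to 1.76 in acute and -1.59 to 1.34 in chronic cells when 1 array was left out, with the lowest without naive replicate 1 and the highest without naive replicate 2. It was -1.17 and -1.43 without naive replicate 1 and chronic replicate 3, and -0.99 and -1.16 with array weights. Array weights also gave -0.029 for Ccl22 in acute against naive cells and -0.10 for Ccl5 between the lung groups. Olfactory receptor centring gave -0.064 for Ccl3, -0.03 for Ccl5 and -0.15 for Ccl20 in chronic against naive cells, and -0.25 for Ccl4, -0.32 for Ccl5, -0.33 for Ccl20, -0.001 for Ccl22 and -0.14 for Xcl1 between the lung groups, where it moved the median of all genes to -0.33 (-0.37 in chronic against naive cells). Array-median centring gave -0.011 for Ccl5 and -0.013 for Ccl20 between the lung groups, where leaving out 1 array gave -0.0037 (without chronic replicate 1) to 0.14 (without chronic replicate 2) for Ccl5 and -0.059 (without acute replicate 1) to 0.18 (without acute replicate 2) for Ccl20. The causes were not tested. Among differences called with all arrays for genes outside the members, 480 values kept their direction and call, and 24 kept their direction and lost the call. Receptors that gained a call, Ccr6 and Xcr1, are given with the receptors. Leaving out dim genes or averaging probe sets changed no call of a member or of those differences, and turned no sign of the latter. Neither could turn a member's sign, because each member had 1 probe set and leaving out other genes does not alter its difference. Ccl4, Ccl20, Ccl22 and Xcl1 lie near the background bound, which limits their differences.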
